A study of Mus musculus with 15 samples.

Results

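The genes around Sfrp5 on mouse chromosome 19 were followed as a block, from Arhgap19 on the lower coordinate side to Nt5c2 on the higher side. The list names 56 genes that lie around Sfrp5, though not every gene of the stretch, and 54 of them were measured, out of 19938 named genes in the series. Chuk and Npm3 matched no single-symbol probe set in the annotation used and were not analysed here. Each gene was read from its brightest probe set over all 15 arrays. RefSeq placed all 54 genes on chromosome 19, with 16 on the lower side of Sfrp5 and 38 on the higher side.

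The tissue was gonadal white fat of male C57BL6/J mice, the visceral pad beside the epididymis. The Sfrp5 KO (Q27Stop) group, named for a stop codon in Sfrp5, held 8 mice, and the wild-type group held 7. Mice of both genotypes ate a high-fat diet for 8 weeks, which began at 4 weeks of age, and were killed at 12 weeks. RNA came from the whole pad, so a change in the number of cells of a type and a change in RNA per cell cannot be told apart. The sources used here do not state how the genotypes were bred.

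Sfrp5 encodes a secreted protein that binds Wnt ligands and keeps them from their frizzled receptors. In fat it is made by adipocytes. Genes that lie near each other on a chromosome are inherited together, because recombination seldom separates them, so mice that carry a mutant allele also carry the neighbouring DNA of the chromosome on which it arose. For these neighbours, an effect of the lost protein and one of DNA inherited with the allele cannot be told apart here.

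Expression is given on a log2 scale for each probe set, and differences are knockout minus wild type on that scale. Array medians lay between 6.99 and 7.07, and the number of arrays limits the precision. Adipocyte markers were strong in both genotypes, with a list mean of 11.71 to 11.98 in knockout arrays and 11.62 to 11.97 in wild-type arrays over 8 genes, 5 of them higher in the knockout and 1 with an unadjusted p below 0.05. Mesothelial markers were higher in the knockout for 8 of 8 genes, 4 of them with an unadjusted p below 0.05, with list means of 7.97 to 8.64 in knockout and 7.40 to 8.77 in wild-type arrays. Macrophage markers were higher for 7 of 8 genes, with list means of 8.56 to 9.90 in knockout and 8.83 to 9.40 in wild-type arrays. All 8 endothelial markers were lower, at 8.93 to 9.39 in knockout and 8.91 to 9.47 in wild-type arrays, and none of the macrophage or endothelial genes had an unadjusted p below 0.05. Skeletal muscle markers were higher for 6 of 8 genes, 1 with an unadjusted p below 0.05, at 7.06 to 7.37 in knockout and 6.97 to 7.26 in wild-type arrays. At an unadjusted p below 0.05, 4.94% of all probe sets were higher in the knockout and 5.03% lower. The part of these cell types in the differences below was not tested.

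The targeted gene was lower in the knockout, with 6.02 to 7.12 (median 6.77) in knockout arrays and 7.66 to 8.33 (median 7.83) in wild-type arrays. Its difference was -1.23 (SE 0.16; limma adjusted p = 0.0200). No knockout array reached the lowest wild-type array. The adjusted p was above 0.05 in 7 of 15 fits that each lacked 1 array, at up to 0.0670, with knockout replicate 2 and wild-type replicate 4 both removed (adjusted p = 0.119), and with knockout replicates 7 and 8 as the sole knockouts (adjusted p = 0.316), while the difference stayed between -1.33 and -0.93 in all settings run.

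None of the 54 measured neighbours passed limma's threshold of 0.05 on the p-value adjusted over all 35557 probe sets, which 0.0337% of all probe sets and 0.00521% of the named genes on other chromosomes passed. At an unadjusted p below 0.05 there were 9 neighbours, 4 higher and 5 lower in the knockout, which is 16.7% of the 54. Of all probe sets 9.97% met that rule (4.94% higher and 5.03% lower), and of the 19181 named genes on other chromosomes 6.54% did (2.26% higher and 4.28% lower). The higher genes were As3mt, Pyroxd2, Pgam1 and Ankrd2, and the lower ones Arhgap19, Cutc, Arl3, Btrc and Cpn1. An unadjusted p below 0.01 was met by 6 neighbours, or 11.1%, against 3.18% of all probe sets and 1.51% of the named genes on other chromosomes.

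In 3 neighbours, As3mt, Pyroxd2 and Arl3, the values of the genotypes did not overlap, which is 5.56% of the 54. The same was true of 0.217% of all probe sets (0.143% higher and 0.0731% lower) and of 0.0886% of the named genes on other chromosomes (0.0417% higher and 0.0469% lower). The region did not move one way as a block. The median difference of the 54 was -0.02, with 21 above 0 and 33 below, beside a median of -0.01 over all probe sets. Differences of the 45 neighbours that did not meet the unadjusted threshold ran between -0.20 and 0.16. The list was drawn up with results of these arrays known, so its counts describe these genes and are not independent evidence.

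**Figure D1:**
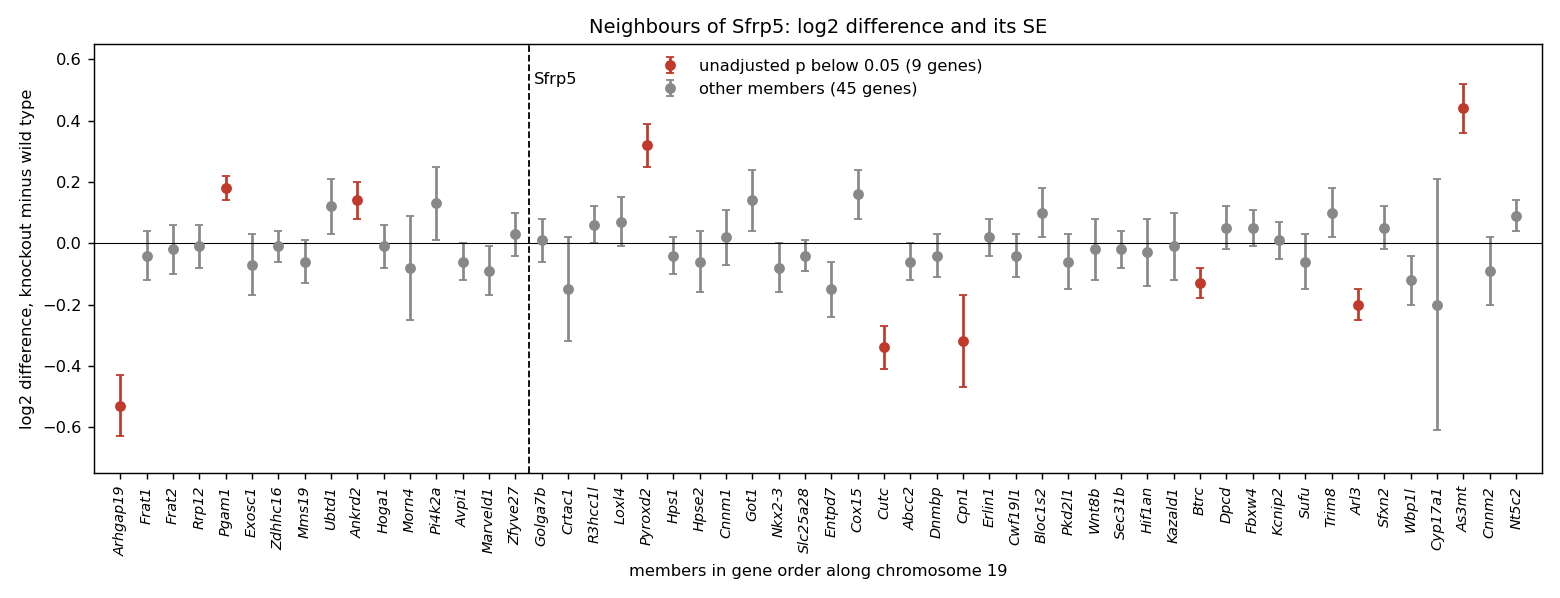
Log2 difference, knockout minus wild type, of the 54 measured neighbours in gene order along chromosome 19 (points, with bars for the SE of limma); the dashed line marks the place of Sfrp5. The 9 genes in red have an unadjusted p below 0.05, from Arhgap19 at -0.53 to As3mt at 0.44, and are scattered among genes near 0.

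The largest difference on the higher side was that of As3mt, the arsenic methyltransferase, which adds methyl groups to arsenic compounds. Knockout replicates 1 to 8 read 8.89, 8.84, 8.99, 9.10, 8.91, 8.93, 9.04 and 9.25. Wild-type replicates 1 to 7 read 8.35, 8.53, 8.32, 8.63, 8.67, 8.59 and 8.78. All 8 knockout mice lay above the highest wild-type mouse, and knockout replicate 8 was the highest. The difference was 0.44 (SE 0.08), a 1.36-fold higher value, with limma adjusted p = 0.0693. As3mt ranked at place 3 of the 19938 named genes by p. It passed the adjusted threshold without knockout replicate 1 (adjusted p = 0.0322), and missed it without any other single array, with adjusted p up to 0.148.

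Pyroxd2, a mitochondrial member of a flavoprotein oxidoreductase family, also separated the genotypes. Knockout replicates 1 to 8 had 6.91, 6.83, 6.94, 6.81, 6.77, 7.16, 6.75 and 6.77. In wild-type replicates 1 to 7 the values were 6.56, 6.52, 6.70, 6.63, 6.41, 6.52 and 6.51. Every knockout mouse exceeded every wild-type mouse, by a narrow margin for most of them, and knockout replicate 6 stood highest. The difference was 0.32 (SE 0.07; limma adjusted p = 0.0951), or 1.24-fold.

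Arl3, a small GTPase that releases cargo proteins in cilia, was the neighbour whose genotypes separated in the lower direction. Values in knockout replicates 1 to 8 were 10.51, 10.51, 10.65, 10.60, 10.55, 10.46, 10.52 and 10.67. Values in wild-type replicates 1 to 7 were 10.78, 10.68, 10.76, 10.76, 10.73, 10.75 and 10.86. The knockout maximum, in replicate 8, lay just under the wild-type minimum, in replicate 2. Its difference was -0.20 (SE 0.05; limma adjusted p = 0.128), which is small on this scale but larger than the SD of 0.07 in knockout and 0.05 in wild-type mice.

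The 250 bases before the annotated start of these 3 genes are shown, since their genotypes did not overlap. The sequences are from RefSeq (GRCm38.p6) and run 5′ to 3′ in the direction of the gene: chr19:46707208-46707457 on the plus strand, chr19:42752776-42753025 on the minus strand and chr19:46573183-46573432 on the minus strand. Capitals mark the letters CTTTGA or their reverse complement TCAAAG, the core to which TCF and LEF proteins, the DNA-binding partners of beta-catenin, bind.
As3mt: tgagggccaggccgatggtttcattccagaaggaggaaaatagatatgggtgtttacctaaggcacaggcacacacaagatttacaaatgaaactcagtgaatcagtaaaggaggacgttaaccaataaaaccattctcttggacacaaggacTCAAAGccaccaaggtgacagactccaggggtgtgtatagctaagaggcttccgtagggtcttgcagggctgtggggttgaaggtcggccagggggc
Pyroxd2: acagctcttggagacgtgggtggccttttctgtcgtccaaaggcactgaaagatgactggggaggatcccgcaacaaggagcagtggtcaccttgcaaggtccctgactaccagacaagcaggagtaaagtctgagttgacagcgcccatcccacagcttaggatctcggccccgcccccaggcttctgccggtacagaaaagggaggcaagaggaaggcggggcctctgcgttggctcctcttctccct
Arl3: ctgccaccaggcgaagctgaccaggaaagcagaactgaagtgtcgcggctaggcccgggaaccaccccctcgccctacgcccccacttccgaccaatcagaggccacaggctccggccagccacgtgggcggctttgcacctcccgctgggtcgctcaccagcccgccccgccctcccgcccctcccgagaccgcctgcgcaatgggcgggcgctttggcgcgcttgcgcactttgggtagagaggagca
The core was found in As3mt, as TCAAAG, and not in the windows of Pyroxd2 and Arl3. Across the neighbours, 48 of 54 had promoter entries in the table, and 6 of their 63 entries (9.52%) held the core on either strand, those of As3mt, Cpn1, Bloc1s2, Kazald1 and Slc25a28. Over all 32851 entries the share was 13.8%. Of the 8 entries of neighbours with an unadjusted p below 0.05, 2 held the core, and the difference was not tested. A GC content of 49.6% was found before As3mt, 58.8% before Pyroxd2 and 70.0% before Arl3. The median was 60.2% for entries of the neighbours with an unadjusted p below 0.05, 62.0% for entries of the other neighbours and 52.4% for all entries.

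Among signalling genes, Arhgap19 had the largest difference of all 54 neighbours. In knockout replicates 1 to 8 it read 5.83, 5.88, 6.14, 5.95, 6.11, 5.84, 6.06 and 5.69. In wild-type replicates 1 to 7 it read 6.67, 6.85, 6.29, 6.53, 6.42, 6.14 and 6.34. The genotypes met at 6.14, in knockout replicate 3 and wild-type replicate 6, and the other 7 knockout mice lay below all wild-type mice. The difference was -0.53 (SE 0.10; limma adjusted p = 0.0867), a 1.44-fold lower value. Without wild-type replicate 6 it passed the adjusted threshold (adjusted p = 0.0385). Its mean level was under the 33rd percentile of all probe sets, as it was for 8 of the 54 neighbours, so the signal was dim.

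Ankrd2, a stretch-responsive ankyrin repeat protein of striated muscle, belongs to the same class. Knockout replicates 1 to 8 showed 7.05, 7.05, 6.84, 7.06, 7.09, 6.84, 7.05 and 7.16. Wild-type replicates 1 to 7 showed 6.92, 6.89, 6.73, 6.83, 7.04, 6.80 and 6.91. The genotypes overlapped, with 6 of 8 knockout mice at or above the wild-type maximum. The difference of 0.14 (SE 0.06; limma adjusted p = 0.452) kept an unadjusted p below 0.05 in 6 of 15 fits, each without 1 array, with p up to 0.0781. Which mice were included therefore changed its side of the threshold.

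The other signalling neighbours overlapped between genotypes. Hif1an, the oxygen-dependent asparagine hydroxylase that restrains hypoxia-inducible factors, differed by -0.03 (SE 0.11). Trim8, a ubiquitin ligase, differed by 0.10 (SE 0.08), Fbxw4, an F-box protein, by 0.05 (SE 0.06), and Ubtd1, a ubiquitin-domain protein, by 0.12 (SE 0.09). Dnmbp, an activator of the GTPase Cdc42, differed by -0.04 (SE 0.07), Avpi1 by -0.06 (SE 0.06), and Nkx2-3, a homeobox factor of gut and spleen vessels, by -0.08 (SE 0.08). Of the 9 measured genes of the class, 1 was higher and 1 lower at an unadjusted p below 0.05. Over all probe sets 4.94% were higher and 5.03% lower by that rule. Over the named genes on other chromosomes it was 2.26% and 4.28%. The difference from these shares was not tested.

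Neighbours in Wnt and Hedgehog signalling were all on the lower side, 5 of 5, with a median difference of -0.04, where 33 of all 54 neighbours were lower. An unadjusted p below 0.05 was met by 1 of the 5. In the lower direction 5.03% of all probe sets and 4.28% of the named genes on other chromosomes met it. That gene was Btrc, the F-box protein that marks beta-catenin and the inhibitor of NF-kappaB for destruction. Knockout replicates 1 to 8 had values of 8.77, 8.98, 8.93, 8.88, 8.89, 9.15, 8.95 and 8.94. Wild-type replicates 1 to 7 had values of 9.14, 9.01, 9.05, 9.03, 9.14, 9.05 and 9.01. Knockout replicate 6 was the highest of all 15, while the other 7 knockout mice lay below every wild-type mouse. The difference was -0.13 (SE 0.05; limma adjusted p = 0.456), with an unadjusted p below 0.05 in 10 of 15 fits, each without 1 array. Frat1 and Frat2, which bind the kinase GSK3 and spare beta-catenin, differed by -0.04 (SE 0.08) and -0.02 (SE 0.08). Wnt8b, a ligand of the embryonic brain, differed by -0.02 (SE 0.10), and Sufu, the brake on Gli factors, by -0.06 (SE 0.09). Apart from Btrc, the differences of this class were smaller than their SEs. Lzts2, a beta-catenin binding gene of the same stretch that is not on the list, was higher, at 0.18 (SE 0.07).

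Enzymes of carbon, nucleotide and steroid metabolism had 6 of 9 differences above 0, with a median of 0.13, and 3 of the 9 had an unadjusted p below 0.05, all higher, where 4.94% of all probe sets and 2.26% of the named genes on other chromosomes were. The class was formed with these results known, so its count describes the 3 genes only. Besides As3mt and Pyroxd2 this was Pgam1, the phosphoglycerate mutase of glycolysis. Knockout replicates 1 to 8 gave 8.59, 8.73, 8.68, 8.71, 8.69, 8.69, 8.73 and 8.73. Wild-type replicates 1 to 7 gave 8.59, 8.55, 8.53, 8.43, 8.51, 8.59 and 8.43. Knockout replicate 1 shared the wild-type maximum, and the other 7 knockout mice lay above it. The difference was 0.18 (SE 0.04; limma adjusted p = 0.165), or 1.13-fold.

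Pgam1 was represented by 3 probe sets, and 2 of them held identical values on all 15 arrays, so they cannot be assigned to separate copies of the sequence. The other probe set differed by 0.18 as well (SE 0.06; limma adjusted p = 0.275). Whether they read Pgam1 alone was not tested. Got1, the cytosolic aspartate aminotransferase, differed by 0.14 (SE 0.10), Pi4k2a, a phosphatidylinositol 4-kinase, by 0.13 (SE 0.12), and Nt5c2, a purine nucleotidase, by 0.09 (SE 0.05). Entpd7, a nucleotide phosphatase of internal membranes, differed by -0.15 (SE 0.09) and Hoga1, a mitochondrial aldolase, by -0.01 (SE 0.07).

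Cyp17a1, a steroid hydroxylase and lyase of the gonads, had the widest spread of all neighbours, with an SD of 0.68 in knockout and 1.02 in wild-type mice. Knockout replicate 2 read 7.45 and wild-type replicate 4 read 8.26, while the other 13 arrays lay between 5.38 and 6.01. The difference between genotypes was -0.20 (SE 0.41; limma adjusted p = 0.918). Epididymis markers, averaged over 7 genes, were at 10.94 in knockout replicate 2 and at 6.24 in wild-type replicate 4, and between 6.03 and 6.93 elsewhere. Leydig cell markers, a list of 4 measured genes added after these values were seen, were at 7.19 in knockout replicate 2, at 5.67 in wild-type replicate 4 and between 5.44 and 5.82 elsewhere. Sperm-forming cell markers, 6 genes also added after these values were seen, were at 9.78 in knockout replicate 2 and 9.82 in knockout replicate 3, against 8.77 in wild-type replicate 4, 8.58 in wild-type replicate 2 and 8.48 in wild-type replicate 6. In the other 10 arrays that list lay at 6.45 to 7.60 in knockout and 6.50 to 6.82 in wild-type mice. Knockout replicate 2 was thus high for Cyp17a1 and all 3 lists, and wild-type replicate 4 for Cyp17a1 and the sperm-forming list but not the other two. Knockout replicate 3 and wild-type replicates 2 and 6 were high for the sperm-forming list and not for Cyp17a1. Epididymis markers were higher in the knockout for 7 of 7 genes, Leydig markers for 3 of 4 and sperm-forming markers for 4 of 6, none with an unadjusted p below 0.05. The share of all probe sets with an unadjusted p below 0.05 is not given here without knockout replicate 2 and wild-type replicate 4. With both left out, 7 of the 54 neighbours had an unadjusted p below 0.05. Ankrd2, at 0.13, and Cpn1, at -0.20, were no longer among them, and both also lost that call when most other single arrays were left out. The part of another tissue in these values was not tested.

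**Figure D2:**
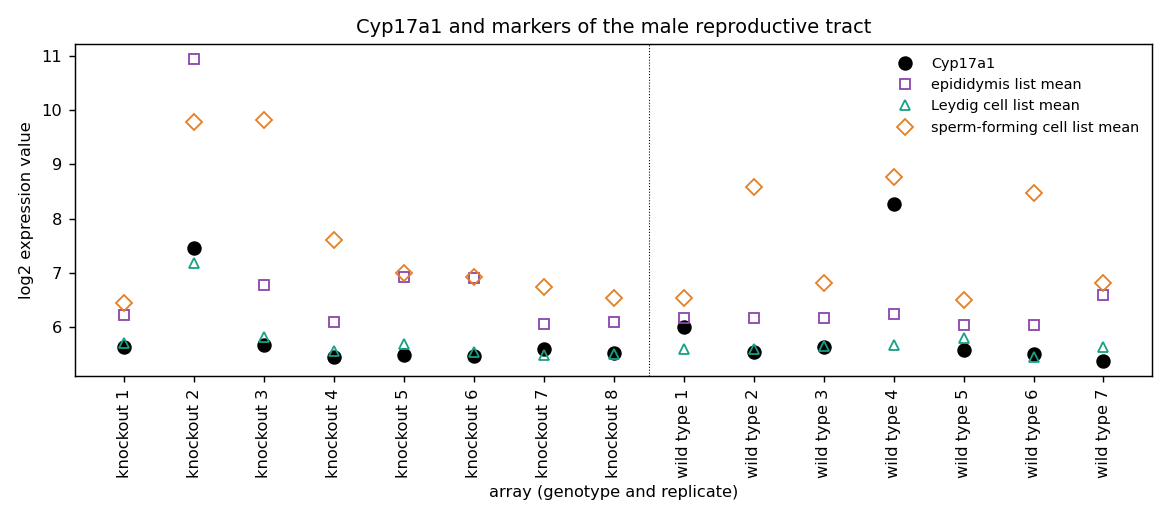
Log2 value of Cyp17a1 (filled circles) and means of the epididymis, Leydig cell and sperm-forming cell marker lists (open symbols) in each of the 8 knockout and 7 wild-type arrays. Cyp17a1 stands out at 7.45 in knockout replicate 2, where all 3 lists are also high, and at 8.26 in wild-type replicate 4, where the sperm-forming list is.

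Among the 6 measured genes of metal handling and the mitochondrial membrane, 1 had an unadjusted p below 0.05, in the lower direction. By that rule 5.03% of all probe sets and 4.28% of the named genes on other chromosomes were lower. The gene was Cutc, a protein of copper handling. Values of 8.09, 8.31, 8.51, 8.30, 8.18, 8.28, 8.11 and 8.12 were found in knockout replicates 1 to 8. Values of 8.65, 8.43, 8.71, 8.46, 8.49, 8.56 and 8.75 were found in wild-type replicates 1 to 7. Knockout replicate 3 fell among the wild-type mice and the other 7 lay below all of them. The difference was -0.34 (SE 0.07; limma adjusted p = 0.0955), a 1.27-fold lower value. Cox15, the direct neighbour of Cutc, makes heme A for cytochrome oxidase and lay on the opposite side, with a difference of 0.16 (SE 0.08; limma adjusted p = 0.542). Slc25a28, the mitochondrial iron carrier mitoferrin 2, differed by -0.04 (SE 0.05) and the sideroflexin Sfxn2 by 0.05 (SE 0.07). Cnnm1 and Cnnm2, relatives linked to magnesium transport, differed by 0.02 (SE 0.09) and -0.09 (SE 0.11).

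Secreted and matrix neighbours were lower for 4 of 5, with a median difference of -0.06. Cpn1, the catalytic subunit of plasma carboxypeptidase N, ranged from 4.65 to 5.03 (median 4.97) in knockout and from 4.77 to 6.08 (median 5.12) in wild-type mice, all dim values. Its difference of -0.32 (SE 0.15; limma adjusted p = 0.499) kept an unadjusted p below 0.05 in only 4 of 15 fits that each lacked 1 array, and lost it under quantile normalization, array weights and a robust prior. Without wild-type replicate 4, at 6.08, the difference was -0.18. Crtac1, a cartilage matrix protein, differed by -0.15 (SE 0.17), with knockout replicates 2 and 4, at 7.54 and 7.67, below all other mice. Loxl4, a lysyl oxidase of collagen cross-linking, differed by 0.07 (SE 0.08) in its brighter probe set and -0.02 (SE 0.13) in the other, Hpse2, which opposes heparanase, by -0.06 (SE 0.10), and Kazald1 by -0.01 (SE 0.11).

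RNA, ribosome and DNA maintenance genes stayed close to 0, with none of 4 measured genes at an unadjusted p below 0.05. That rule was met by 9.97% of all probe sets and 6.54% of the named genes on other chromosomes. Rrp12, which exports ribosomal subunits, differed by -0.01 (SE 0.07), the RNA exosome subunit Exosc1 by -0.07 (SE 0.10), Cwf19l1 by -0.04 (SE 0.07), and Mms19, which delivers iron-sulphur clusters to DNA repair enzymes, by -0.06 (SE 0.07). Apart from Arl3, no membrane traffic gene had an unadjusted p below 0.05 in its brightest probe set. Differences were 0.03 (SE 0.07) for Zfyve27, the protrudin of endosome contacts, 0.01 (SE 0.07) for Golga7b, -0.04 (SE 0.06) for Hps1 of lysosome-related organelles, and 0.10 (SE 0.08) for Bloc1s2, whose other probe set differed by 0.16 (SE 0.08; limma adjusted p = 0.518) with 5 of 8 knockout mice above the wild-type maximum. Whether the 2 probe sets of Bloc1s2 read that gene alone was not tested. Sec31b of the COPII coat differed by -0.02 (SE 0.06) and Erlin1 of endoplasmic reticulum degradation by 0.02 (SE 0.06). The palmitoyltransferase Zdhhc16 differed by -0.01 (SE 0.05) and Marveld1 by -0.09 (SE 0.08). Channel and transporter genes were Abcc2, an export pump, at -0.06 (SE 0.06), the cation channel Pkd2l1 at -0.06 (SE 0.09), and Kcnip2, a partner of potassium channels, at 0.01 (SE 0.06). The remaining genes were Morn4 at -0.08 (SE 0.17), R3hcc1l at 0.06 (SE 0.06), Dpcd at 0.05 (SE 0.07) and Wbp1l at -0.12 (SE 0.08).

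**Figure D3:**
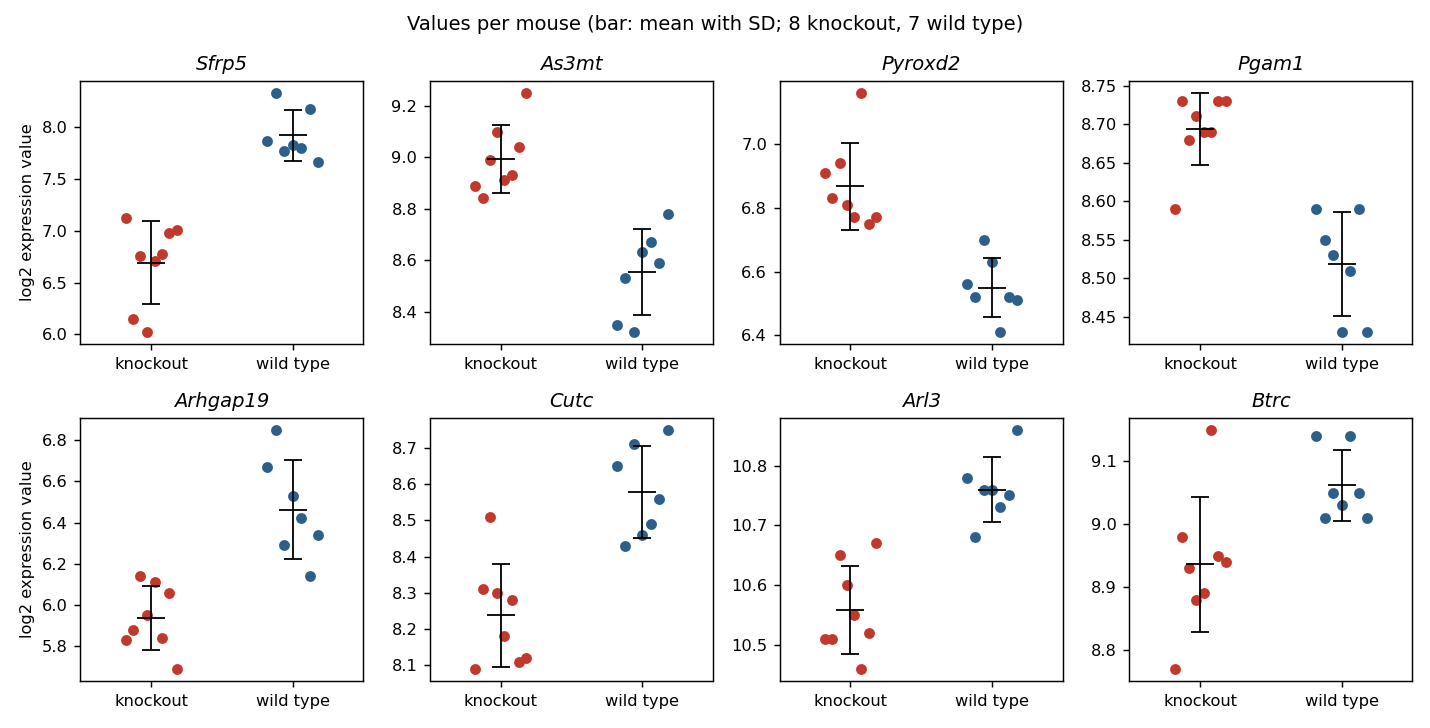
Log2 values of Sfrp5 and 7 neighbours in each mouse, knockout left and wild type right, with the mean and SD of each group (8 and 7 mice). As3mt, Pyroxd2, Arl3 and Sfrp5 do not overlap between genotypes, and in Arhgap19, Cutc, Pgam1 and Btrc a single knockout mouse reaches or passes the nearest wild-type mouse.

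The most extreme knockout mouse was not the same in all of the neighbours with the lowest p. As3mt was highest in replicate 8 and Pyroxd2 in replicate 6. Cutc was lowest in replicate 1, Arhgap19 in replicate 8 and Arl3 in replicate 6. Ankrd2, Btrc and Cpn1 lost an unadjusted p below 0.05 when knockout replicate 1 alone, or replicate 5 alone, was left out. Over the 54 neighbours the median SD was 0.13 in knockout and 0.13 in wild-type mice.

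The shifted genes did not follow each other along the chromosome. The measured genes directly beside Sfrp5, Zfyve27 and Golga7b, were within 0.03 of no difference. Between the ends of the list 93 named genes other than Sfrp5 were measured, 54 of them neighbours on the list and 39 not, and 13 of the 93 had an unadjusted p below 0.05. The share was 9.97% over all probe sets and 6.54% over the named genes on other chromosomes. None of the 13 was next to another, and how many adjacent pairs scattered genes would give was not assessed. Between 2 and 12 measured genes (median 6.5) lay from one to the next, and of the 12 successive pairs 7 had the same direction and 5 opposite directions. Counted in measured genes from Sfrp5, Arhgap19 lay at 18 on the lower side. As3mt lay at 73 on the higher side, Pyroxd2 at 5, Cutc at 14 and Arl3 at 68. These counts are not distances in bases, which were not compared. Along the list the sign of the difference changed at 27 of 53 steps, and the longest run of 1 sign was 6 genes.

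Genes of the same stretch that are not on the list had an unadjusted p below 0.05 for 4 of 39, or 10.3%, close to the 9.97% of all probe sets and beside 6.54% of the named genes on other chromosomes; the difference from the share of the listed genes was not tested. These were Scd1, Lzts2, Hps6 and Nolc1. Scd1, the stearoyl-CoA desaturase, ranged from 13.14 to 13.36 (median 13.30) in knockout and from 12.99 to 13.22 (median 13.06) in wild-type mice, a difference of 0.21 (SE 0.05; limma adjusted p = 0.136). Lzts2, which binds beta-catenin, differed by 0.18 (SE 0.07; limma adjusted p = 0.377), Hps6, of lysosome-related organelles, by -0.21 (SE 0.08; adjusted p = 0.404), and Nolc1, a nucleolar protein, by -0.16 (SE 0.06; adjusted p = 0.353). Scd2 differed by 0.33 (SE 0.20; limma adjusted p = 0.645), with 9.74 to 11.29 (median 10.40) in knockout and 9.43 to 10.58 (median 10.08) in wild-type mice.

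Counted from Sfrp5 outward in measured genes, 3 of 20 (15%) on the lower side and 3 of 20 (15%) on the higher side had an unadjusted p below 0.05 within 20 steps. At 21 to 40 steps it was 2 of 20 (10%) on each side. On the higher side it was 3 of 20 at 41 to 60 steps, 3 of 20 at 61 to 80, 1 of 20 at 81 to 100, and 5 of 55 (9.09%) beyond. On the lower side it was 1, 2 and 2 of 20 over the same distances, 11 of 100 (11%) at the next 100 steps and 31 of 319 (9.72%) beyond. The shares near Sfrp5 thus rested on 2 or 3 genes per bin. Over all probe sets the share was 9.97%, and over the named genes on other chromosomes 6.54%. The bins hold named genes only, so the second share, or the 6.69% of all named genes, is the like one. Most bins lay near the first share and above the second. A trend with distance was not tested.

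**Figure D4:**
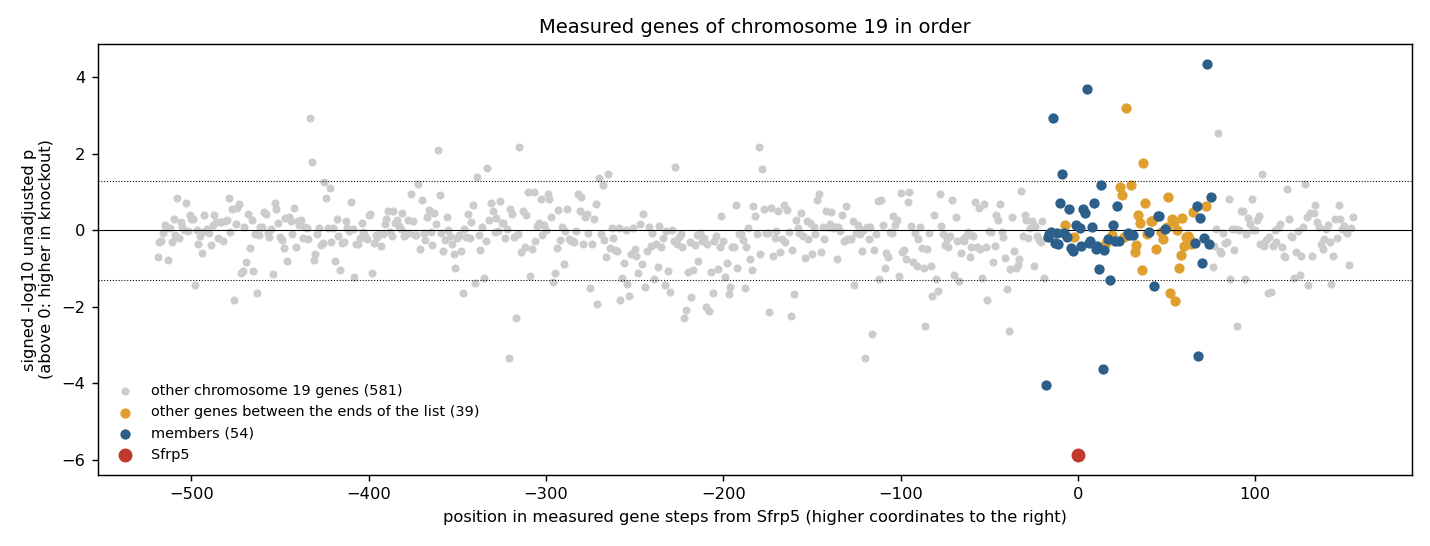
Measured genes of chromosome 19 by position in gene steps from Sfrp5 (horizontal axis) against the signed -log10 of the unadjusted p (vertical axis, above 0 for higher in the knockout); dotted lines mark p of 0.05. Neighbours on the list (blue) reach beyond the lines in both directions at scattered places, and Sfrp5 (red) has the lowest p.

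The remainder of the chromosome, 581 named genes outside the stretch, had 56 genes (9.64%) with an unadjusted p below 0.05, of which 13 were higher and 43 lower; on other chromosomes 434 such genes were higher and 820 lower. With Sfrp5 left out, chromosome 19 as a whole reached 10.2%, against 5.20% to 8.28% (median 6.44%) on autosomes 1 to 18 and X. For genotypes that did not overlap, chromosome 19 reached 0.593%, against 0 to 0.463% on the others. At 3 of 54 the listed neighbours held 3 of the 4 such genes of the chromosome. The other was Tut1, a nucleotidyltransferase of U6 RNA, outside the stretch on the lower side, with 6.72 to 7.29 in knockout and 7.32 to 7.53 in wild-type mice; it was named after its values were seen.

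**Figure D5:**
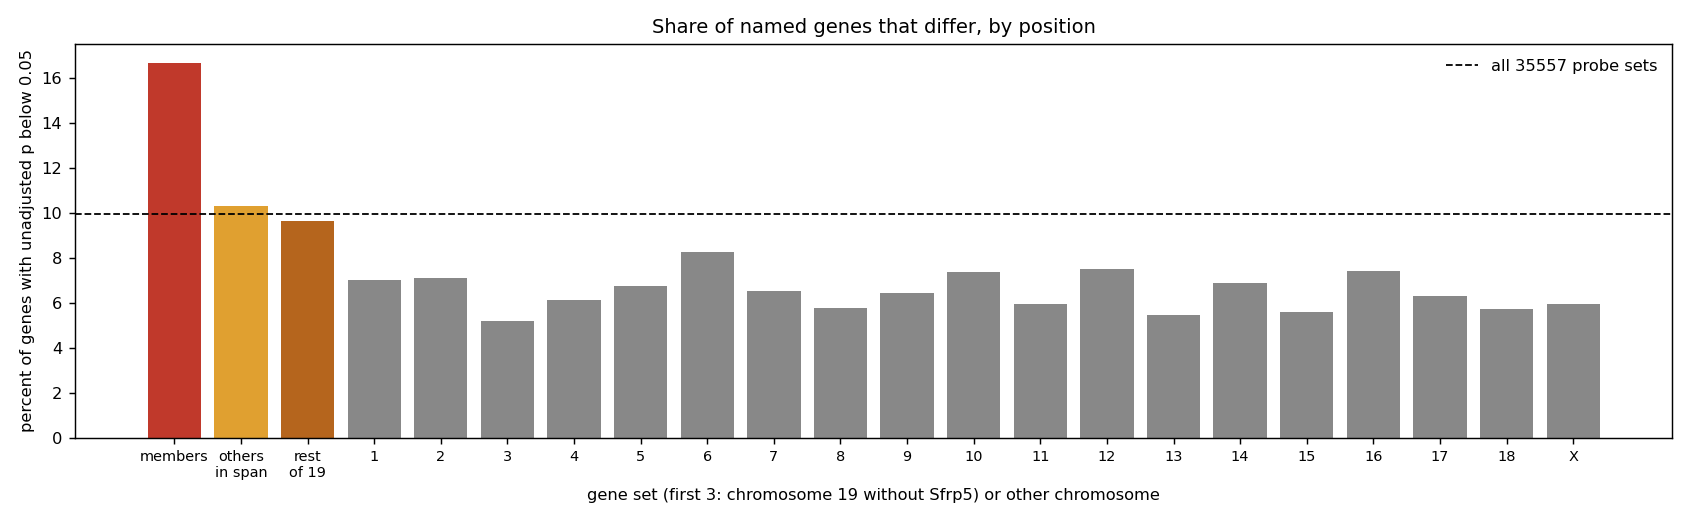
Percent of named genes with an unadjusted p below 0.05 among the 54 listed neighbours, the 39 other genes of the same stretch, the other 581 genes of chromosome 19 and each other chromosome; the dashed line is the share over all 35557 probe sets. The listed neighbours stand at 16.7%, the other chromosomes between 5.20% and 8.28%.

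Counts were also compared at like signal levels, with the named genes split into 3 equal classes by mean level. In the highest class, 5 of 18 neighbours (27.8%) had an unadjusted p below 0.05, against 6.77% of the genes on other chromosomes. In the middle class it was 2 of 22 (9.09%) against 4.42%, and in the lowest class 2 of 14 against 8.42%. The bright ones were As3mt, Pgam1, Cutc, Arl3 and Btrc. These counts are small, and the difference between the shares was not tested.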

How the data were processed

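The deposited table holds log2 values for 35557 probe sets on 15 Affymetrix arrays, 1 per mouse; RMA, which subtracts background, equalises array distributions and combines probes, is among the tools that the submitters' processing notes list. A change common to most genes would be removed by it. Also listed, without a stated role, are limma, Affymetrix Expression Console (1.1.2800.19935) and affy (1.18). No source used here gives a genome build. Per the labels' protocols, cDNA was amplified from total RNA and labelled with biotin. Detection per probe could not be assessed.

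A gene was read from its brightest probe set with exactly 1 symbol in the platform annotation (21789 probe sets, of which 21698 matched the RefSeq table of GRCm38.p6 by gene identifier); that table gave symbols, chromosome and order. The genotype test was lmFit and eBayes of limma 3.58.1 (R 4.3.3), with no covariate or filter, with Benjamini-Hochberg adjustment over all probe sets. The fit was tested on simulated data. Means are given with SDs, differences with limma's moderated SEs. Python 3.11.15 drew the figures.

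The neighbours, role groups, marker lists and settings were chosen with earlier results of these data known. Neighbours with an unadjusted p below 0.05 are named with values by group, the 8 of lowest p with every array, the others by their difference; of the other genes in the stretch, those with an unadjusted p below 0.05 and Scd1 and Scd2 are named. Array descriptions number wild-type arrays 1 to 7 and knockout arrays 8 to 15, so any effect of that order and the genotype cannot be told apart. Knockout arrays 7 and 8 carry description numbers within the wild-type range, whose meaning is not stated, and were also used as the only knockouts. The Leydig and sperm-forming cell lists were added after the values were seen. Alternatives were normalization, a filter on dim probe sets, the variance model, array weights, the mean of probe sets, arrays left out, a stricter p and the replicate number as a block.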

Additional observations from a re-analysis of the deposited data

Results flagged for a closer look

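Of 110 groups examined, the 2 genotypes of the 54 neighbours and Sfrp5, 8 held an array far from the others of its genotype; chance gives about 1 in 20. Cyp17a1 was at 7.45 in knockout replicate 2 (others 5.45 to 5.67) and at 8.26 in wild-type replicate 4 (others 5.38 to 6.01). Kazald1 was at 7.15 in knockout replicate 3 (others 6.35 to 6.61) and Ubtd1 at 6.98 in knockout replicate 8 (others 6.33 to 6.64). Pgam1 was at 8.59 in knockout replicate 1, below the others at 8.68 to 8.73. R3hcc1l was at 9.01 in wild-type replicate 3 (others 8.73 to 8.84), and Rrp12 at 6.56 in the same array (others 6.75 to 6.89). Pkd2l1 was at 5.91 in wild-type replicate 4 (others 5.29 to 5.55).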

How the results depend on the processing

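The count of neighbours with an unadjusted p below 0.05 was 9. It lay between 6 and 9 when 1 array was left out and between 7 and 10 under the other settings at that threshold. At a p below 0.01 it was 6. With all arrays, 9.97% of all probe sets had an unadjusted p below 0.05, 0.0337% passed the adjusted threshold and 0.217% did not overlap. These shares are not given here for the other settings. The counts below therefore do not show whether neighbours changed more than other probe sets did. Arhgap19, Pgam1, Pyroxd2, Cutc, Arl3 and As3mt had an unadjusted p below 0.05 under every setting in which they had a value, except Arl3 with knockout replicates 7 and 8 as the only knockout arrays; none of the 9 neighbours with an unadjusted p below 0.05, nor Sfrp5, Scd1, Scd2, Lzts2, Hps6 or Nolc1, changed sign, and the signs of the other neighbours were not tallied. The count past the adjusted threshold was 0, and it was 0 to 1 with 1 array left out, with Arhgap19 passing without wild-type replicate 6 and As3mt without knockout replicate 1. It was 1 (As3mt) without the dim probe sets, under a robust prior that follows intensity, and under array weights, at adjusted p of 0.0399, 0.0456 and 0.0387. Neighbours whose genotypes did not overlap numbered 3, and 3 to 5 with 1 array left out; the 5 came without knockout replicate 3, where Arhgap19 and Cutc joined. Quantile normalization gave 5, with Arhgap19 and Pgam1 added, and knockout replicates 7 and 8 as the only knockout arrays gave 11, where fewer arrays make separation easier. The median difference was -0.02, and -0.03 to 0.01 with 1 array left out (0.01 without wild-type replicate 4). When the knockout group was replicates 7 and 8 alone it was 0.01, and the cause was not tested. Other genes of the stretch with an unadjusted p below 0.05 numbered 3 to 5. Same-numbered arrays of the genotypes had correlations of deviations between -0.117 and 0.248. The labels give the number only as a biological replicate, and these values cannot tell whether such arrays share more than it. The replicate number was also used as a block, which leaves knockout replicate 8 without a partner. There 10 neighbours had an unadjusted p below 0.05 and 0 passed the adjusted threshold. The median was -0.03, and 3 other genes of the stretch met the unadjusted threshold. Sfrp5 missed the adjusted threshold under the block (0.3), without knockout replicate 2 and wild-type replicate 4 together (0.119), with knockout replicates 7 and 8 alone (0.316) and in 7 of the 15 fits without 1 array, with adjusted p up to 0.0670.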

Other observations

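Outside the listed stretch and within 120 measured genes of Sfrp5, 6 named genes had an unadjusted p below 0.01, named here after their values were seen. The limit of 120 is the place of Rln1, so the count describes these genes only. Of all 581 named genes of chromosome 19 outside the stretch, 17 (2.93%) met that rule. The share was 3.18% over all probe sets and 1.51% over the named genes on other chromosomes. Gsto1, a glutathione transferase that also reduces methylated arsenic, lay 90 genes away on the higher side, with 7.30 to 7.96 (median 7.67) in knockout and 7.74 to 8.41 (median 8.05) in wild-type mice, a difference of -0.38 (limma adjusted p = 0.214). Atp5md, a subunit of ATP synthase, lay 79 genes away, with a difference of 0.22. On the lower side Fas, the death receptor, 86 genes away, had the largest difference, -0.69, with 8.11 to 9.55 in knockout and 8.80 to 9.72 in wild-type mice. Rln1, the relaxin gene, differed by -0.32, Ric1 by -0.24 and the dim Cyp2c38 by -0.31. Of the 6, 5 were lower in the knockout. The 56 genes of chromosome 19 outside the stretch with an unadjusted p below 0.05 held 43 lower ones, part of them the clustered olfactory receptor genes. On other chromosomes 820 of 1254 such genes were lower.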
